A study of Mus musculus with 2 samples.

Results

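Crip1, Crip2, Csrp1, Csrp2 and Csrp3 are genes of the mouse Crip and Csrp families, which encode small proteins built almost entirely of LIM domains. They were taken by gene symbol, and all 5 were found among the 32285 genes listed in both count matrices. Crip1 was selected because of its ratio between ages in the muscle class in earlier results from these libraries, so its values in muscle are given as a description. The libraries came from limb skeletal muscle of wild-type (WT) C57Bl/6 mouse embryos aged E12.5 or E15.5 (embryonic days), 1 library for each age, and held mixed fore- and hindlimb tissue. Single cells were captured in droplets with a 10x Genomics kit that reads the 3' ends of transcripts. The labels gave no number or sex of embryos, and cells with Y-linked UMIs and cells with Xist were both present, so that each library held more than 1 embryo. With 1 library per age there was no test between ages, and every interval below is a 95% interval of counting error alone.

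A LIM domain is a pair of zinc fingers that binds other proteins rather than DNA. The Csrp proteins bind the actin-bundling protein alpha-actinin and the adhesion protein zyxin, and also act in the nucleus with serum response factor on smooth muscle genes. Csrp3, or muscle LIM protein, belongs to striated muscle and sits at the Z disc, the anchor of thin filaments, while Csrp1 and Csrp2 are best known from smooth muscle and other contractile or adherent cells. Crip1 was first described in the intestine and is abundant in immune cells, and Crip2 is known from heart and vessels.

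In mouse genome build GRCm38 (GENCODE vM21 annotation), Crip2 (ENSMUSG00000006356) spans chromosome 12, 113140236–113145506, and Crip1 (ENSMUSG00000006360) follows it on the same plus strand at 113146316 to 113153879, with 809 bases between the annotated spans. The Csrp genes lie apart: Csrp1 (ENSMUSG00000026421) on chromosome 1, 135720061–135752232, Csrp2 (ENSMUSG00000020186) on chromosome 10, 110919789–110939622, and Csrp3 (ENSMUSG00000030470) on chromosome 7, 48830398–48848033, the last on the minus strand. RefSeq promoter windows (build GRCm38.p6, 250 bases before to 50 after a transcript start) were found for 4 of the 5 genes, Csrp2 having no entry. The 250 bases before a start are shown for Crip1 and Crip2, the neighbouring genes that were higher in muscle at E15.5, and for Csrp3, the gene seen almost only in muscle. The Crip1 stretch shown lies inside the annotated span of that gene, so its start is not the beginning of the span. Capitals mark GGGCGG on either strand, the core of a GC box, and TATATA.
Crip1, chr12:113151762-113152011, plus strand: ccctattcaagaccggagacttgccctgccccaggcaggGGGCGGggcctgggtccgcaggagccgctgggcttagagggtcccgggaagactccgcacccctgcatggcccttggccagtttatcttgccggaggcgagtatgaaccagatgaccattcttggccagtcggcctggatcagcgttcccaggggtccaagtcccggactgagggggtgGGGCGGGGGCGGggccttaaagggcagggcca
Crip2, chr12:113139986-113140235, plus strand: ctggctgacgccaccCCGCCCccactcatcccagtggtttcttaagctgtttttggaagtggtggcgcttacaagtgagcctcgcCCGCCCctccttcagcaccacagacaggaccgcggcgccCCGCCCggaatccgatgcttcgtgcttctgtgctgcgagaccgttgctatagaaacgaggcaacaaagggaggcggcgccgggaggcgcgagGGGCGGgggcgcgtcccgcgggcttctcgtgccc
Csrp3, chr7:48848052-48848301, minus strand: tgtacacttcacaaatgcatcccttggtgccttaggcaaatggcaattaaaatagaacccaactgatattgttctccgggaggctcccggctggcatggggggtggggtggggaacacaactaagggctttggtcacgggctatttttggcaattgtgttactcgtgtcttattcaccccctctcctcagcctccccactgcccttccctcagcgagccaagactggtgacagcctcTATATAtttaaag
Over the whole 300-base windows, Crip1 had a GC content of 68.3% with 18 CpG and 3 GGGCGG, and Crip2 had 66.3% with 29 CpG and 4 GGGCGG. Csrp3 had 52.3% with 6 CpG, no GGGCGG, 1 TATATA and 5 CANNTG, the E box core bound by myogenic factors. Crip1 and Crip2 (this start) had 1 CANNTG each. A second start of Crip2 had 73.7% GC, 36 CpG, 5 GGGCGG and 4 CANNTG, and a second start of Csrp3 had 49.7% GC, 4 CpG, no TATATA and 4 CANNTG. Csrp1 had 59.7% at one start and 50.3% at another, with 1 and 0 GGGCGG. Among all 32851 windows of this length the median GC content was 52.7% with 7 CpG, 35.7% held GGGCGG, 72.3% held CANNTG, 5.67% held TATATA and 1.63% held a CArG box, the site of serum response factor, of which none was found in the windows of these genes. The motifs were chosen after the sequences were seen, both strands were searched, and a match is a string of letters, not a shown binding site.

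The E12.5 library kept 11001 cells with a median of 2321 UMIs (unique molecular identifiers, which count captured RNA molecules), and the E15.5 library kept 3916 cells with a median of 9334 UMIs. Only 17 barcode sequences occurred in both. Cells were grouped into rebuilt classes named from marker genes, and the 5 genes took no part in the clustering. The muscle-lineage-like class, called muscle below, held 602 E12.5 cells and 394 E15.5 cells, and its 16 markers summed to 14163 and 7261 CPM (UMIs scaled to the usual fixed total per class), against 136 and 83.7 CPM in the connective tissue-like class. The connective tissue class held 8031 and 1610 cells, the chondrocyte class 1098 and 556, the tenocyte class 469 and 152, and the endothelial class 132 and 152. These 5 classes had at least 30 cells at both ages. Mural (152 cells) and mast (69 cells) clusters were named at E15.5 only.

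Within muscle, clusters with Pax7 among their 10 leading genes were called Pax7-led, Pax7 being the gene of muscle progenitors. The others were myocyte-like by their fixed markers, such as Myog and the sarcomere gene Acta1. At E12.5 the myocyte-like cells were a cluster led by Myog and another led by Myl4 and Mylpf. At E15.5 they were a cluster led by Mylpf and Myl1, so this part may not hold like cells at both ages. Pax7-led cells made up 62.0% of the class in the E12.5 library (373 of 602) and 75.9% in the E15.5 library (299 of 394). Myog was at 40.0 CPM in Pax7-led and 1095 CPM in myocyte-like cells at E12.5, and at 84.6 and 2021 CPM at E15.5. At E15.5 the Pax7-led clusters had only 2 of the 3 progenitor markers needed for a name, so they are called by their leading gene.

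Crip1 was scarce in muscle at E12.5 and plain there at E15.5. The class held 12 Crip1 UMIs at E12.5, or 4.82 CPM (2.49–8.42), and 570 at E15.5, or 93.3 CPM (85.8–101). That is 19.4-fold (11.003–37.7), a log2 ratio of 4.28 (3.46–5.24), and 8 of the 8809 genes compared in muscle had a higher ratio. In muscle, 3.17% of these genes were 2-fold or more higher at E15.5 and 17.7% were 2-fold or more lower. All 5 of the Crip and Csrp genes were among those compared, Crip1 and Crip2 being 2-fold or more higher and Csrp3 2-fold or more lower, and Crip1 had been picked from this same contrast. Csrp3 was less than 2-fold lower with cells of equal weight (-0.74) and relative to the median gene (-0.90), and Crip2 less than 2-fold higher in male cells (0.82).

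The connective tissue class had nearly the same ratio for Crip1. There it was at 28.3 CPM (26.0–30.8) at E12.5, from 559 UMIs, and at 476 CPM (466–486) at E15.5, from 8357 UMIs. The ratio was 16.8-fold, or 4.07 (3.95–4.20) on the log2 scale, and 62 of 9706 genes had a higher one. Among those genes 8.46% were 2-fold or more higher at E15.5 and 19.5% 2-fold or more lower, and of the 4 Crip and Csrp genes that passed the filter on low counts there, Crip1 and Crip2 were higher by that measure and none was lower. The muscle minus connective tissue difference in log2 ratio was 0.21 (-0.62 to 1.17), so that the muscle ratio could not be told from that of connective tissue at this depth. The largest connective tissue cluster was led by Gdf5 at E12.5 and by Fst, Sfrp4 and Clec3b at E15.5. This class too may thus not hold like cells at both ages.

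Against the other classes the muscle ratio was larger. In the tenocyte class Crip1 was at 23.8 CPM (14.5–36.8) and 182 CPM (161–204), a log2 ratio of 2.93 (2.28–3.66). The tenocyte cluster of E12.5 was led by Dcc, Thbs4 and Tbx5 and those of E15.5 by Tnmd and Scx, so the class may not hold like cells at both ages. In the chondrocyte class it was at 52.7 CPM (44.8–61.6) and 218 CPM (204–232), a ratio of 2.05 (1.80–2.30). In the endothelial class it was at 157 CPM (128–192) and 459 CPM (430–489), a ratio of 1.54 (1.24–1.86). The muscle ratio exceeded these by 1.35 (0.25–2.51), 2.23 (1.37–3.22) and 2.73 (1.86–3.74). Crip1 was picked for its ratio in muscle in these same libraries, and that ratio rests on 12 UMIs at E12.5. The differences are thus given as a description. These intervals leave out the variation between embryos and libraries, which 1 library per age does not show.

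The order of the classes was different when the change was counted in CPM gained. Muscle gained 88.5 CPM (80.2–96.8), the smallest gain of the 5 classes, and connective tissue gained 448 CPM (437–458), the largest. Endothelial cells gained 301 CPM (256–344), chondrocytes 165 CPM (149–182) and tenocytes 158 CPM (133–182). The large fold in muscle thus went with the lowest starting level of the 5 classes.

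**Figure D1:**
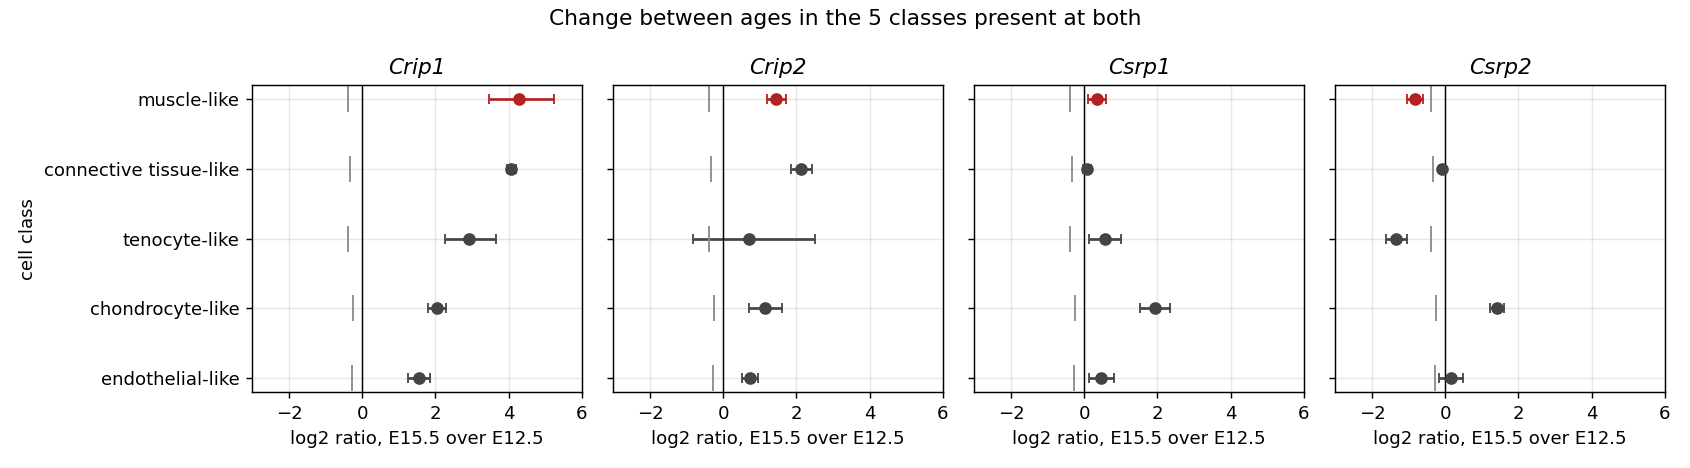
Log2 ratio of E15.5 over E12.5 levels (x axis) of Crip1, Crip2, Csrp1 and Csrp2 in the 5 cell classes with at least 30 cells at both ages (y axis, muscle in red), with 95% intervals of counting error; the grey tick is the median gene of the class. For Crip1 the muscle value of 4.28 lies beside the connective tissue value of 4.07 and to the right of the tenocyte, chondrocyte and endothelial values, and for Csrp2 muscle (-0.82) and chondrocytes (1.42) lie on opposite sides of 0.

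Among all classes of at least 20 cells, muscle had the lowest Crip1 level at E12.5 and the second lowest at E15.5. At E12.5 the endothelial (157 CPM), immune (139 CPM, 16 UMIs) and Schwann (111 CPM, 11 UMIs) classes were highest, with overlapping intervals. Chondrocytes followed at 52.7 CPM (44.8–61.6), which overlapped the Schwann interval (55.4–199). Connective tissue, tenocytes and erythroid cells (14.4 CPM, 2 UMIs) came next, again overlapping. The erythroid interval (1.74–51.8) also took in that of muscle and overlapped that of chondrocytes. At E15.5 mast cells at 899 CPM (851–948) and mural cells, which wrap small vessels, at 867 CPM (826–909) led and overlapped. Connective tissue and endothelial cells followed and overlapped, then Schwann cells at 367 CPM (329–407) and chondrocytes at 218 CPM (204–232). Tenocytes and immune cells (175 CPM, 147–207) came next and overlapped, and the immune interval also overlapped that of chondrocytes. Muscle stood below all of these at 93.3 CPM, and epithelial cells were lowest at 9.33 CPM (2.54–23.9) from 4 UMIs.

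**Figure D2:**
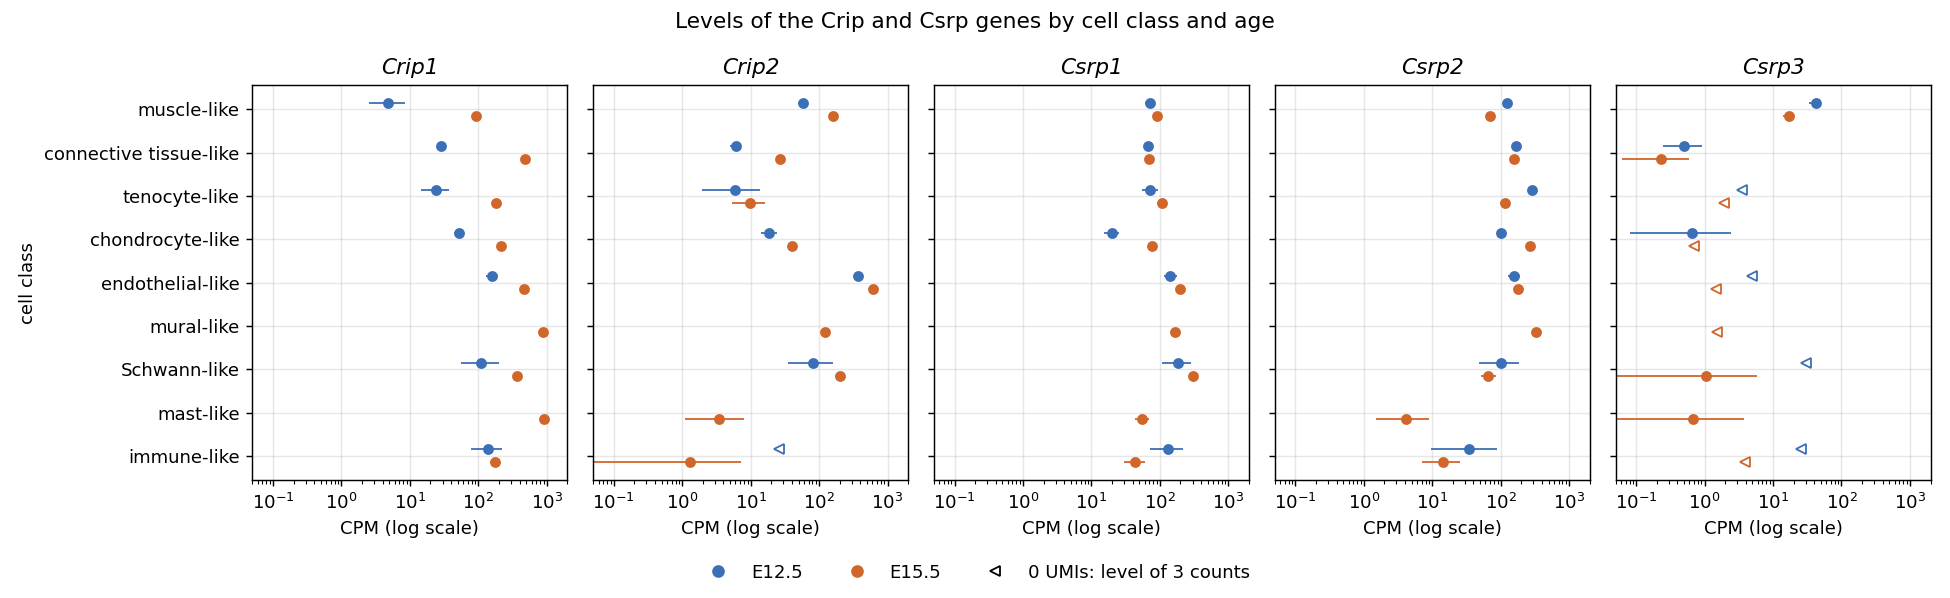
Level of each gene in CPM (x axis, log scale) in the cell classes of at least 20 cells (y axis) at E12.5 (blue) and E15.5 (orange), with 95% Poisson intervals; an open triangle marks 0 UMIs and sits at the level of 3 counts. Crip1 is seen in every class shown, Crip2 is highest in endothelial cells, and Csrp3 is above a few CPM in muscle alone among the filled points.

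Nearly all of the Crip1 in muscle at E15.5 lay in the Pax7-led cells. They held 9 UMIs at E12.5, or 5.99 CPM (2.74–11.4), and 549 at E15.5, or 119 CPM (109–129), a log2 ratio of 4.31 (3.37–5.44). Myocyte-like cells held 3 and 21 UMIs, or 3.03 CPM (0.63–8.86) and 14.2 CPM (8.77–21.7), a ratio of 2.22 (0.48–4.61). Neither myocyte-like level lay above the 3.07 and 26.8 CPM that connective tissue RNA carried over in proportion to its markers would give. For Pax7-led cells the carried levels would be 3.14 and 20.8 CPM, the first inside the interval of the measured level. Whether the UMIs of either part were carried over was not tested, so both ratios are ratios of UMI levels only. The Pax7-led minus myocyte-like difference in log2 ratio, 2.08, had an interval from -0.48 to 4.17 and so included 0. At E15.5 itself the Pax7-led level was 8.38-fold the myocyte-like level, a log2 ratio of myocyte-like over Pax7-led cells of -3.07 (-3.77 to -2.44), while at E12.5 the same ratio of -0.98 (-3.50 to 1.02) was not distinguishable from 0.

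Shares of muscle cells with a Crip1 UMI were higher at E15.5 too. After a random draw of 2000 UMIs from each cell, leaving out 50 and 6 muscle cells with fewer, 0.906% (0.295–2.10) of 552 muscle cells had a Crip1 UMI at E12.5 and 15.46% (12.0–19.5) of 388 had one at E15.5. Without thinning the shares were 1.99% and 45.2%, at median depths of 3764 and 14319 UMIs. In Pax7-led cells the thinned share was 1.18% (0.321–2.98) and 19.1% (14.8–24.0). In myocyte-like cells it was 0.472% (0.0119–2.60) and 3.37% (0.701–9.54), with median depths of 3858 and 13295 UMIs. Connective tissue cells had thinned shares of 5.55% and 38.7%, and endothelial cells 23.3% and 54.2%. The draw left out 3076 of 8031 and 2 of 1610 connective tissue cells, and 16 of 132 and 21 of 152 endothelial cells. The connective tissue shares thus set the deeper cells of E12.5 beside nearly all of those of E15.5.

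UMIs of connective tissue markers were counted in muscle cells, and their amount was set beside Crip1. Whether they were carried over or made by the muscle cells was not tested. The 10 connective tissue markers, none of them at 0, summed to 512 CPM in muscle at E12.5 and 774 CPM at E15.5, or 10.98% and 4.67% of the level in connective tissue itself (4664 and 16556 CPM). If Crip1 were carried over in that proportion, muscle would hold 3.11 CPM at E12.5 and 22.2 CPM at E15.5. The measured 4.82 CPM at E12.5 had an interval that included the carried level, and the measured 93.3 CPM at E15.5 lay above it. At E15.5 the markers summed to 723 CPM in Pax7-led and 932 CPM in myocyte-like cells, and Crip1 was at 119 and 14.2 CPM. The myocyte-like level of 14.2 CPM lay below the carried 26.8 CPM. This calculation was added after the values were seen and takes the mean connective tissue cell as the source. Crip1 in the clusters of that class ranged from 157 to 1839 CPM at E15.5.

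Muscle cells with a UMI of the fibroblast genes Prrx1, Pdgfra, Osr1 or Twist2 numbered 174 of 602 (28.9%) in the younger library and 61 of 394 (15.48%) in the older. Without them the muscle minus connective tissue difference for Crip1 was -0.04 (-0.98 to 1.11). Male and female cells come from different embryos, and Crip1 was higher at E15.5 in both. Male muscle cells (141 and 65) held 2 and 59 Crip1 UMIs, a log2 ratio of 4.14 (2.22–7.22), and female muscle cells (267 and 286) held 6 and 476, a ratio of 4.38 (3.25–5.83).

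Connective tissue clusters at E15.5 differed widely in Crip1. At E12.5 the 14 clusters of this class ranged from 8.39 to 70.8 CPM with a median of 25.7 CPM, and at E15.5 the 6 clusters ranged from 157 to 1839 CPM with a median of 660 CPM. The ranges did not overlap. The lowest cluster at E15.5, of 384 cells led by Aldh1a3 and Ngfr, was at 157 CPM, and the largest, of 660 cells led by Fst, Sfrp4 and Clec3b, was at 255 CPM. A cycling cluster led by Nusap1 and Hmmr was at 485 CPM and a cluster led by Dpt and Apod at 835 CPM. The highest were 82 cells led by Twist2 at 1596 CPM and 51 cells led by Spink6, Anxa8 and Pi16 at 1839 CPM. In muscle the 2 Pax7-led clusters of E15.5 were at 137 and 103 CPM, the second being the one with histone genes of dividing cells among its leading genes.

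**Figure D3:**
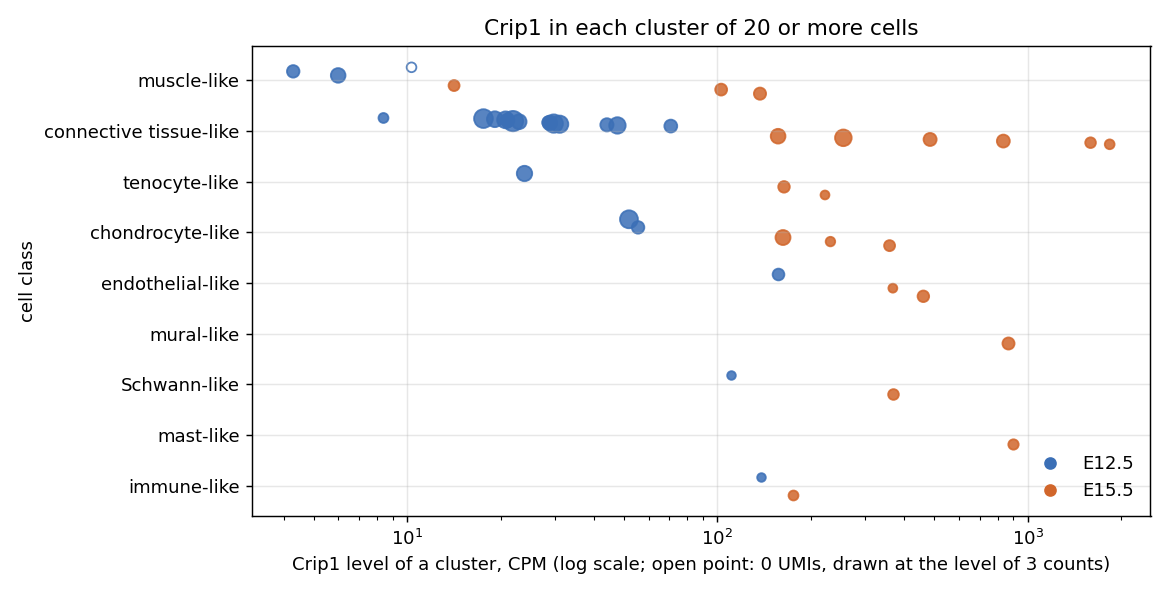
Crip1 level in CPM (x axis, log scale) of each cluster of at least 20 cells, by cell class (y axis), at E12.5 (blue) and E15.5 (orange); a larger point has more cells, and the open point is a muscle cluster with 0 UMIs drawn at the level of 3 counts. The connective tissue clusters of E15.5 spread from 157 to 1839 CPM, and the muscle clusters of E15.5 sit at 14.2, 103 and 137 CPM.

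Crip2 was highest in endothelial cells at both ages and was also plain in muscle. Endothelial cells had 370 CPM (323–421) at E12.5 and 613 CPM (579–647) at E15.5, above every other class with no overlap of intervals. A Crip2 UMI was seen in 56.0% (46.5–65.2) and 71.8% (63.2–79.3) of thinned endothelial cells, and in 0 of 69 thinned mast cells, which allows up to 4.35% at 3 counts. Before thinning, 5 of these 69 mast cells (7.25%) held one. The next classes at E15.5 were Schwann cells at 200 CPM (173–231), muscle at 159 CPM (149–170) and mural cells at 122 CPM (107–138). At E12.5 Schwann cells (80.7 CPM, 34.9–159, from 8 UMIs) and muscle (58.2 CPM, 49.1–68.5) overlapped. Mast cells (3.40 CPM, 5 UMIs), immune cells (1.29 CPM, 1 UMI) and epithelial cells (4.66 CPM, 2 UMIs) were lowest at E15.5.

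In muscle Crip2 was higher at E15.5, with 145 UMIs in the younger and 972 in the older library and a log2 ratio of 1.45 (1.198–1.71). Over the whole class its ratio was below that of connective tissue, where levels of 6.08 CPM (5.04–7.27) and 26.7 CPM (24.3–29.2) gave 2.13 (1.84–2.43). The muscle minus connective tissue difference was -0.68 (-1.08 to -0.29) over the whole class. For Pax7-led cells alone it was 0.63 (0.04 to 1.25), in the other direction, and these cells made up more of the class at E15.5 (75.9% against 62.0%). The chondrocyte ratio was 1.13 (0.69–1.59) and the endothelial ratio 0.73 (0.52–0.94). The tenocyte ratio of 0.70 (-0.84 to 2.51) came from 5 and 15 UMIs.

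The 2 parts of the muscle class differed in Crip2 at E12.5 and lay close together at E15.5. Pax7-led cells were at 22.0 CPM (15.1–30.9) at E12.5 and 149 CPM (138–161) at E15.5, a log2 ratio of 2.76 (2.26–3.31). Myocyte-like cells were at 113 CPM (93.2–136) and 190 CPM (169–214), a ratio of 0.75 (0.43–1.08). The ratios differed by 2.01 (1.41–2.65). The myocyte-like level was thus 5.15-fold the Pax7-led level at E12.5 and 1.28-fold at E15.5, log2 differences of 2.37 (1.79–2.97) and 0.35 (0.15–0.55). Carry-over from connective tissue in proportion to its markers would give 0.673 CPM and 1.16 CPM of Crip2 in Pax7-led cells.

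Csrp1 was seen in most classes, and the 2 parts of muscle differed in direction between ages. Pax7-led cells were at 69.3 CPM (56.6–83.9) at E12.5 and 112 CPM (102–122) at E15.5, a log2 ratio of 0.69 (0.38–1.01). Myocyte-like cells were at 72.8 CPM (57.0–91.7) and 22.9 CPM (15.9–32.1), a ratio of -1.67 (-2.30 to -1.06). The ratios differed by 2.35 (1.67–3.06). At E12.5 the 2 parts had overlapping levels, and at E15.5 the Pax7-led level was 4.86-fold the myocyte-like one. Over the whole muscle class this gave 70.7 CPM (60.6–81.9) and 90.1 CPM (82.7–97.9), a ratio of only 0.35 (0.10–0.60), with more Pax7-led cells in the class at E15.5.

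Outside muscle, the largest Csrp1 ratio was that of chondrocytes, at 19.9 CPM (15.2–25.6) and 75.9 CPM (68.0–84.6), or 1.93 (1.53–2.35). This class held different clusters at each age, at 21.4 and 14.6 CPM at E12.5. At E15.5 the cluster led by Matn1 was at 38.2 CPM from only 15 UMIs, and the others were at 73.5 and 96.0 CPM. The muscle minus chondrocyte difference in log2 ratio was -1.58 (-2.07 to -1.11). Connective tissue had 66.5 CPM (63.0–70.2) and 69.8 CPM (65.9–73.8), a ratio of 0.07 (-0.04 to 0.18) whose interval included 0. The endothelial ratio was 0.46 (0.12–0.81) and the tenocyte ratio 0.56 (0.13–1.00). By level, Schwann cells were highest at E15.5 among classes of at least 20 cells with 302 CPM (268–339), then endothelial cells with 196 CPM (177–216) and mural cells with 167 CPM (149–186), which overlapped. At E12.5 Schwann (182 CPM, 18 UMIs), endothelial (143 CPM) and immune cells (130 CPM, 15 UMIs) overlapped at the top.

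Csrp2 was lower at E15.5 in muscle and higher in the chondrocyte class, which held different clusters at each age. In muscle it was at 123 CPM (109–137) at E12.5, from 306 UMIs, and 69.8 CPM (63.3–76.7) at E15.5, from 426 UMIs, a log2 ratio of -0.82 (-1.03 to -0.60). Pax7-led cells had 115 CPM (98.7–134) and 80.0 CPM (72.1–88.6), a ratio of -0.53 (-0.79 to -0.26), and myocyte-like cells 134 CPM (113–159) and 37.8 CPM (28.5–49.1), a ratio of -1.83 (-2.31 to -1.37). The parts differed in ratio by 1.31 (0.77–1.85). Both were lower at E15.5, the myocyte-like cells by more. Relative to the median gene of each part the ratios were -0.15 in Pax7-led and -1.40 in myocyte-like cells.

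Chondrocytes had 101 CPM (90.1–113) of Csrp2 at E12.5 and 271 CPM (255–287) at E15.5, a log2 ratio of 1.42 (1.24–1.61). Both E12.5 clusters of this class had Matn1, Hapln1 and Acan among their leading genes and were at 105 and 89.1 CPM. The E15.5 cluster with these genes among its leaders, of 44 cells, was at 68.7 CPM from only 27 UMIs. A cluster of 417 cells led by Mia and Sox9 was at 319 CPM and a cycling cluster of 95 cells at 216 CPM. Tenocytes differed the other way, with 289 CPM (254–328) and then 115 CPM (98.4–133), a ratio of -1.34 (-1.62 to -1.05). Connective tissue had 165 CPM (159–171) and 156 CPM (150–162), a ratio of -0.08 (-0.15 to -0.01), and endothelial cells a ratio of 0.15 (-0.17 to 0.49). At E12.5 tenocytes thus stood highest, above connective and endothelial cells, whose intervals overlapped. At E15.5 mural cells, the smooth muscle-related cells of vessels, stood highest at 328 CPM (303–354), then chondrocytes, endothelial cells at 177 CPM (159–196) and connective tissue. Mast cells were lowest at 4.08 CPM (1.50–8.89).

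Within classes Csrp2 varied as well. The myocyte-like cells of E12.5 comprised a cluster of 180 cells led by Myog at 83.0 CPM and a cluster of 49 cells led by Myl4, Mylpf and Myh3 at 258 CPM. The connective tissue clusters ranged from 108 to 319 CPM at E12.5 and from 80.0 to 409 CPM at E15.5, so that they overlapped between ages. The highest at E15.5 was again the cluster led by Spink6, Anxa8 and Pi16, which was also highest of its class for Crip2, at 225 CPM against a class median of 21.2 CPM.

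Csrp3 was almost confined to muscle. Of the Csrp3 UMIs in all kept cells, muscle held 104 of 116 in the younger and 105 of 111 in the older library. Connective tissue held 10 and 4 UMIs (0.507 and 0.228 CPM), chondrocytes 2 and 0, Schwann cells 0 and 1, and mast cells 1 at E15.5. The endothelial, tenocyte and mural classes held none, which allows up to 4.86 and 1.46 CPM in endothelial cells, 3.57 and 1.93 CPM in tenocytes and 1.51 CPM in mural cells at 3 counts.

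Inside muscle Csrp3 was found in the myocyte-like cells. They held 102 UMIs at E12.5, or 103 CPM (84.1–125), and 105 at E15.5, or 70.8 CPM (57.9–85.8), a log2 ratio of -0.54 (-0.95 to -0.13). These UMIs lay in 42 of 229 and 19 of 95 myocyte-like cells, and the interval leaves out variation between cells. Pax7-led cells held 2 UMIs at E12.5 (1.33 CPM) and 0 at E15.5. The myocyte-like level was 77.4-fold the Pax7-led level at E12.5, a log2 ratio of 6.27 (4.38–9.34), and at least 109-fold at E15.5 against the level of 3 counts in the Pax7-led cells. Most of the E12.5 signal came from 1 small cluster: the 49 cells led by Myl4, Mylpf and Myh3 held 88 UMIs, or 303 CPM, and the 180 cells led by Myog held 14, or 20.04 CPM. A Csrp3 UMI was seen in 12.3% (8.17–17.5) of thinned E12.5 myocyte-like cells and 8.99% (3.96–16.9) of those of E15.5, with overlapping intervals, against 0 of 116 and 0 of 131 thinned endothelial cells, which allows up to 2.59% and 2.29% at 3 counts. Median depths before thinning were 3871 and 10588 UMIs in endothelial cells.

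Over the whole muscle class Csrp3 was at 41.8 CPM (34.1–50.6) and 17.2 CPM (14.1–20.8), a log2 ratio of -1.28 (-1.69 to -0.87). This ratio was lower than within the myocyte-like cells, and their share of the class was also smaller at E15.5 (95 of 394 against 229 of 602 cells). The median gene of the muscle class had a log2 ratio of -0.38, and that of the myocyte-like cells one of -0.44. Relative to these, the ratio was -0.90 over the class and -0.11 within the myocyte-like cells. Set against the median gene, the other genes kept their direction in the muscle class, at 4.65 for Crip1, 1.83 for Crip2, 0.73 for Csrp1 and -0.44 for Csrp2.

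**Figure D4:**
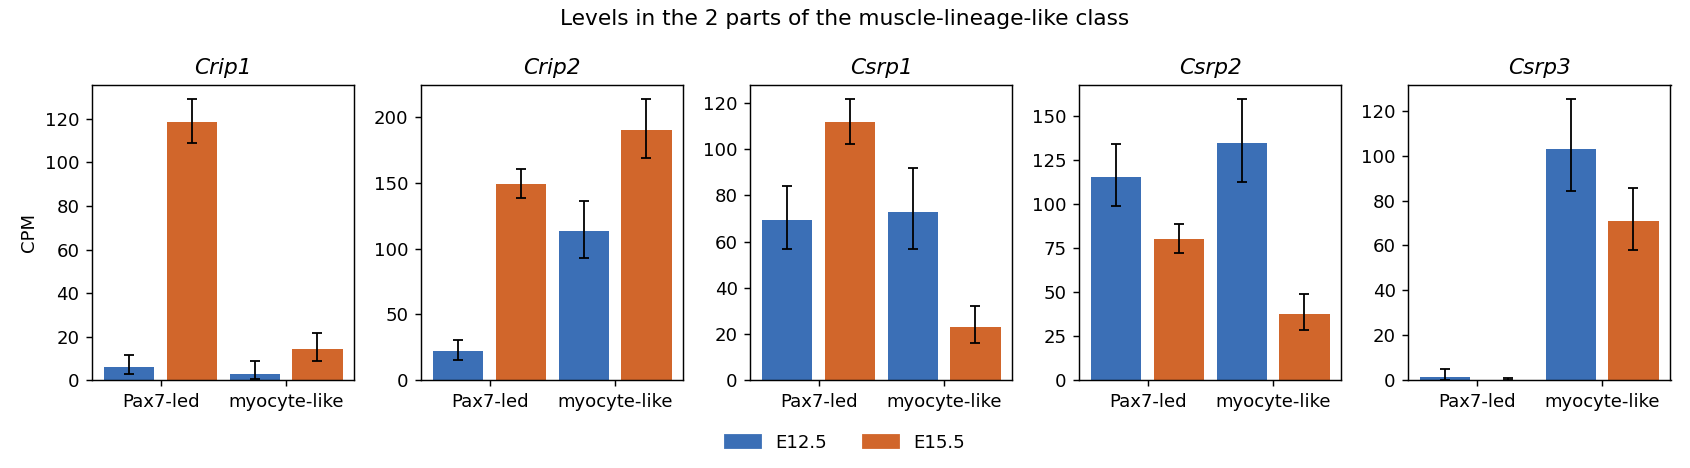
Level in CPM (y axis, a separate scale for each gene) of the 5 genes in Pax7-led and myocyte-like cells of the muscle class at E12.5 (blue bars) and E15.5 (orange bars), with 95% Poisson intervals. Crip1 at E15.5 stands at 119 CPM in Pax7-led and 14.2 CPM in myocyte-like cells, Csrp1 is higher at E15.5 in the first and lower in the second, and Csrp3 is seen almost only in myocyte-like cells.

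The change of these genes was set beside other LIM genes. Of 34 further LIM genes, 23 passed the filter on low counts in muscle, 1 was 2-fold or more higher at E15.5 and 8 were 2-fold or more lower, against 3.17% and 17.7% of all genes. Their median log2 ratio was -0.37 and that of all genes -0.38. The gene past 2-fold was Pdlim1, which binds alpha-actinin, at 4.42 and 13.1 CPM and a ratio of 1.57 (0.65–2.63). Wtip (0.49) and the adhesion gene Zyx (0.47, 0.27–0.67), whose protein binds Csrp1, came next. The lowest were Tes at -3.80 (-5.34 to -2.53), Pdlim3, an actinin-associated LIM protein of muscle, at -2.204 (-2.66 to -1.76), and Lasp1 at -1.67 (-2.33 to -1.02).

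Z disc genes gave a similar split. Of 20 listed, 14 passed the filter in muscle, 1 was 2-fold or more higher and 6 were lower, against 3.17% and 17.7% of all genes, with a median of -0.27. Cryab, a chaperone of desmin filaments, was at 92.8 and 218 CPM, a ratio of 1.23 (1.03–1.44), followed by the actin-severing Cfl2 at 0.48 (0.37–0.59) and Smpx at 0.17 (-0.22 to 0.57). Tcap, the titin cap protein that binds Csrp3, was at 36.9 and 2.29 CPM, the lowest ratio of the list at -4.01 (-4.94 to -3.19). Actn3 at -2.64 (-3.35 to -1.96) and Synpo2 at -2.41 (-2.77 to -2.06) followed. Muscle ratios of this and the other gene lists are for the whole class, with fewer myocyte-like cells at E15.5 (95 of 394 against 229 of 602). They were not computed within its parts, and the effect of this cell mix was not tested.

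Of 28 actin and serum response factor genes, 22 passed in muscle, 2 were 2-fold or more higher and 4 lower, against 3.17% and 17.7% of all genes, with a median of -0.34. The higher ones were Tagln2 at 1.92 (1.29–2.61) and the smooth muscle gene Tagln at 1.22 (1.02–1.43), and Zyx, on this list too, came next. Smooth muscle actin Acta2, which early myocytes also express, was at 1297 and 485 CPM, a ratio of -1.42 (-1.49 to -1.35). Lmod1 at -2.03 (-3.06 to -1.05) and Mrtfb, a cofactor of serum response factor, at -1.35 (-1.96 to -0.75) were the others among the lowest. In connective tissue, 24, 5 and 22 genes of these lists passed, with medians of 0.03, 1.39 and -0.33 beside -0.34 for all genes. The Z disc median rests on only 5 genes. Of these, Cryab and Des were at 0.912 and 2.33 CPM at E12.5 and passed on their E15.5 levels alone. Flnc, Cfl2 and Capzb, above 10 CPM at both ages, had ratios of 1.39, 0.58 and -0.06. No difference from all genes is thus read from the Z disc median. There Pdlim1 (2.57, 2.25–2.90) and Tagln2 (2.11, 1.98–2.25) were again among the higher ones, and Tagln, at -0.80 (-0.99 to -0.61), was lower.

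Likeness of range was described over 15 profiles, each a named class of at least 30 cells at 1 age, by Pearson's r of log2(CPM + 10) among 6856 genes. The profiles share 2 libraries and their depths, so no test was made. Nearest to Crip1 were Elovl1 (0.94), 1810037I17Rik (0.92), Rabac1 (0.90), Clic1 (0.90) and Tmem128 (0.89). Nearest to Crip2 were Cdc42ep1 (0.93), Grasp (0.91), S100a16 (0.90), Filip1 (0.90) and the smooth muscle gene Smtn (0.90). Csrp1 was nearest to Hadhb (0.91), Vim (0.90), Pfdn1 (0.89), Mlf2 (0.88) and Ndfip2 (0.87).

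Csrp2 was nearest to another LIM gene, Fhl2 (0.94), and then to Rbm18 (0.93), 2700081O15Rik (0.92), Maged2 (0.91) and Sgce (0.91). Csrp3 was nearest to genes of striated muscle, Smyd1, a methyltransferase needed for sarcomere assembly, Tceal7, the Z disc actinin Actn2, the calcium pump Atp2a1 and Mylk4, with r from 0.99 to 1.00 that rests on muscle standing apart from all other classes. None of the 5 genes was among the nearest of another. The highest r between them was 0.75, for Crip2 and Csrp1, and the neighbouring genes Crip1 and Crip2 had 0.34.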

How the data were processed

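The deposited matrices hold raw UMI counts of 32285 genes, all whole numbers. Per the file headers, Cell Ranger 4.0.0 made them. The submitters' processing notes also list mm10 and Seurat 4.3.0. The annotation release and the settings for calling cells are not given in the sources used here. Cell classes were rebuilt from the counts.

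Cells with at least 500 genes and under 10% mitochondrial UMIs were kept, and cells with the highest Scrublet-like doublet scores were removed at 0.8% per 1000 deposited barcodes (1270 at E12.5, 190 at E15.5). The deposited libraries held 34907675 UMIs in 12941 barcodes and 46966083 in 5780. Each library was clustered alone (2000 variable genes, 30 principal components, 15 neighbours, Leiden resolution 1.0, seed 0, leidenalg 0.10.2, Python 3.11.15). The 5 genes, the gene lists, 26 proliferation genes, Xist and 4 Y-linked genes were kept out of the variable genes.

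Clusters were named for a class when 3 or more of its fixed markers were 2-fold or more higher than in other cells and detected in 10% of its cells, with 1 among its 10 leading genes by fold (10 CPM added). Remaining clusters became connective tissue if 3 of its markers were 2-fold higher than in the non-mesenchymal classes and their depth was at least 0.5 of the library median. The naming rule was set after clusters were seen, and 556 cells (5.05%) and 639 (16.3%) stayed unnamed. The members and lists were chosen with earlier results of these data known.

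UMIs were summed per class and given as CPM with exact Poisson intervals. Shares have Clopper-Pearson intervals, log2 ratios the exact conditional interval, and differences of ratios the MOVER interval. All cover counting error only, and the interval code was checked on simulated data. A count of 0 is given the limit of 3 counts. For the background and lists, genes needed 20 UMIs over both ages and 10 CPM at 1 of them, and 0.5 UMI was added for the ratios of all genes. Named list genes are the 3 highest and 3 lowest ratios in muscle of each list, and for likeness the 5 genes with the highest r among those reaching 50 CPM. Alternatives changed the cell and doublet filters, clustering, scaling, cell weights, sex and muscle cells.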

Additional observations from a re-analysis of the deposited data

Results flagged for a closer look

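Csrp2 stood out because its change between ages went in opposite directions in the muscle and chondrocyte classes of the same libraries. The muscle minus chondrocyte difference in log2 ratio (E15.5 over E12.5) was -2.24 (-2.52 to -1.95), from -0.82 in muscle and 1.42 in chondrocytes, and -2.11 relative to the median gene of each class. With 1 library per age the difference was not tested. Among the 3 chondrocyte clusters of E15.5, Csrp2 ranged from 68.7 CPM in 44 cells led by Matn1 and Col2a1 to 319 CPM in 417 cells led by Mia and Sox9, and the 2 clusters of E12.5, both with Matn1, Hapln1 and Acan among their leading genes, were at 89.1 and 105 CPM. The E15.5 cluster led by Matn1 held only 27 Csrp2 UMIs, against 61 and 244 in those of E12.5. No interval was computed for single clusters, so it is not read as lower than them. The class held different clusters at each age.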

How the results depend on the processing

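Under 12 planned settings, 83 values were recomputed, of which 70 moved by less than their interval, 13 moved by more and 0 changed the sign of a value whose interval excluded 0. In muscle the log2 ratio ranged from 3.71 (no doublets removed) to 4.65 for Crip1, 0.82 to 1.83 for Crip2, 0.25 to 0.73 for Csrp1, -1.01 to -0.44 for Csrp2 and -2.55 to -0.74 for Csrp3. Scaling to the median gene gave 1.83 for Crip2, 0.73 for Csrp1 and -0.44 for Csrp2 in muscle and 4.41 for Crip1 in connective tissue. Male cells gave 0.82 for Crip2 and -2.55 for Csrp3 in muscle and 4.33 for Crip1 in connective tissue. Csrp3 in muscle was -0.74 with cells of equal weight and -1.75 without cells holding a fibroblast UMI. Crip1 in connective tissue was 3.93 with at least 1000 genes, 3.91 at resolution 0.5, 3.74 with both libraries clustered together and 4.21 without ribosomal, mitochondrial and haemoglobin genes. The cause of these shifts was not tested. The Crip1 muscle minus connective tissue difference lay above 0 under 8 settings and below under 4, from -0.34 with no doublets removed to 0.41, and every interval computed included 0. Thinned to 1000 UMIs, which by construction leaves fewer counts, the Crip1 shares in muscle were 0.840% and 9.14%. The Crip1 ratio in muscle rests on 12 UMIs at E12.5. No paired analysis was possible because there was 1 library per age, and for the same reason no library could be left out.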

Other observations

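Unnamed clusters also held the LIM genes. At E15.5 a cluster of 330 cells led by Nefm, Tac1 and Sfrp2 had 164 CPM of Crip1 and 216 CPM of Csrp2. A shallow cluster of 24 cells (median 1484 UMIs) had S100a9, S100a8, Vpreb3, Aif1 and Cd79b among its leading genes. It had 352 CPM of Crip1, from 16 UMIs, and 0 UMIs of Crip2. No unnamed cluster of E15.5 held a Csrp3 UMI, nor did the 556 unnamed cells of E12.5, which allows up to 2.62 CPM there.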
